A study of Mus musculus with 4 samples.

Results

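The lysosome genes described here are 44 genes of the 27998 listed for each library, chosen by symbol: 10 peptidases, 8 glycosidases, 6 lipid enzymes and carriers, 5 other soluble proteins, 9 membrane proteins, 5 subunits of the proton pump and the transcription factor gene Tfeb. All 44 symbols were found. Lysosomes are acidic organelles in which proteases, glycosidases and lipases break down material that cells take up or recycle. A proton pump in their membrane, the V-ATPase, acidifies them, and the factor TFEB can raise the expression of many lysosomal genes. In the liver, Kupffer cells, the resident macrophages of the sinusoids, clear particles and old blood cells from the blood, and liver sinusoidal endothelial cells (LSEC) scavenge soluble molecules.

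CD45+ leukocytes were isolated from livers of adult wild-type C57BL/6 mice and their RNA was read cell by cell in droplets, in which unique molecular identifiers (UMIs) count RNA molecules. The exercise group (2 libraries) ran on a treadmill at 12.5 m/min, and the sedentary group (2 libraries) was placed on a stationary one, each on a schedule of 60 min/day, 5 days/week over 4 weeks. Injured hepatocytes release alanine aminotransferase, and its serum level at harvest was 26 U/L for exercise 1, 59 U/L for exercise 2, 33 U/L for sedentary 1 and 56 U/L for sedentary 2. The question in the series title is whether exercise before surgery trains Kupffer cells towards an anti-inflammatory state through their metabolism. Both groups were labelled wild type of the same strain. The labels do not state that the libraries came from separate animals, so p-values measure only the spread between these samples, which may be technical.

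The 4 libraries held 2991 to 4265 barcodes and 10050976 to 14849778 UMIs, and 14560 of 15383 barcodes were kept as cells. Clustering gave 16 named classes with 13495 cells, and 7 unnamed clusters held the other 1065 cells. Class names rest on markers and end in "-like". Of these classes, 11 had 20 or more cells in each of the 4 libraries and were used: Kupffer-like (5340 cells), cycling Kupffer-like (321), other macrophage-like (314), classical monocyte-like (263), conventional dendritic types cDC1-like (322) and cDC2-like (195), plasmacytoid dendritic pDC-like (460), B-like (2141), T-like (2427), NK or ILC-like (440) and LSEC-like (833). Clec4f, a lectin that defines Kupffer cells, averaged 3871 CPM in Kupffer-like and 157 CPM in LSEC-like cells. Ptprc, which encodes the CD45 used for selection, averaged 411 CPM in Kupffer-like but 28.6 CPM in LSEC-like cells, so the LSEC-like class goes against the CD45+ label. Any pair of libraries shared 11 to 28 barcodes. Exercise 2 stood apart from the other 3 libraries in classical monocyte-like cells, and the exercise results that turn on it are given with and without it.

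Levels are given in CPM, counts per 1000000 UMIs of a class after summing its cells in a library, and in the order exercise 1, exercise 2, sedentary 1, sedentary 2. UMI counts of this 3′ assay are not scaled by gene length, so a gene is compared with itself across classes and not with other genes. A sum of UMIs over cells cannot tell fewer expressing cells from less RNA per cell. Since the classes were drawn from the same cells, differences between classes are described with the spread over 4 libraries and carry no test.

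Promoter sequences were searched for letters recognised by TFEB and its relatives, and are shown for the 8 members that hold the run TCACGTGA and for Lamp1. The letters searched were the E-box CACGTG, the longer run TCACGTGA that contains it, and the CLEAR element, which adds a G before and a C after TCACGTGA. Each shorter run is counted within the longer, and all 3 read the same on both strands. RefSeq promoters of build GRCm38.p6, 250 bases before to 50 bases after each annotated start, were matched for 39 of the 44 members. Ctsb, Ctsh, Asah1, Npc1 and Atp6v1b2 had no entry. TCACGTGA stood in at least 1 promoter of 8 of 39 members (20.5%), against 304 of 27025 genes in the whole table (1.125%). CACGTG stood in 13 of 39 members (33.3%), against 2187 of 27025 genes (8.09%). Of the other lysosomal genes followed below, 7 of 54 with an entry held TCACGTGA (12.96%). The full CLEAR element was found for 1 of 39 members (2.56%), Cln3, and for 100 of 27025 genes (0.37%). Lgmn, Ctsl, Glb1 and Gaa held CACGTG alone, as did Lamp1. A match describes the letters and shows no binding.

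The stretches below run 5′ to 3′ along the gene, with the matched run in capitals. They lie at chr8:105566061-105566083, minus strand (Atp6v0d1), chr16:44139369-44139406, minus strand (Atp6v1a), chrX:134601178-134601248, minus strand (Gla), chr8:70766838-70766875, minus strand (Ifi30), chr7:126583340-126583369, minus strand (Cln3), chr2:164833758-164833786, plus strand (Ctsa), chr7:142387908-142387937, minus strand (Ctsd), chr8:3500462-3500491, plus strand (Mcoln1) and chr8:13159085-13159160, plus strand (Lamp1). Lamp1 is added because its promoter holds 4 separate CACGTG runs, the first 61 bases and the last 15 bases before the start.
Atp6v0d1: caggccctactgcggTCACGTGA
Atp6v1a: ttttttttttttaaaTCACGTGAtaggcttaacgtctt
Gla: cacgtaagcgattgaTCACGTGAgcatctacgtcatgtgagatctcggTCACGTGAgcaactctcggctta
Ifi30: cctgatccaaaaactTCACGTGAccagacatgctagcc
Cln3: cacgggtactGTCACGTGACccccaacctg
Ctsa: tgTCACGTGAtgcagatgcTCACGTGAcc
Ctsd: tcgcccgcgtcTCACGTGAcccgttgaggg
Mcoln1: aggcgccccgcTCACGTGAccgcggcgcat
Lamp1: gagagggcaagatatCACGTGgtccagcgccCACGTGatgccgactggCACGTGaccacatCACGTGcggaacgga

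The stretches of Cln3, Ctsa, Ctsd and Mcoln1 overlap annotated exons of at least 1 transcript and are shown with shorter flanks. Gla held 2 runs of TCACGTGA, starting 228 and 195 bases before the annotated start, and Ctsa held 2 runs, 1 on each side of it. By mean level, Ctsa, Ctsd and Ifi30 were highest in Kupffer-like cells, Mcoln1 and Atp6v1a in cycling Kupffer-like cells, Gla and Atp6v0d1 in classical monocyte-like cells, and Cln3 in other macrophage-like cells. For all 8 the libraries of the highest class overlapped those of the next, and the means of Ifi30, Atp6v0d1, Atp6v1a and Cln3 were close in both classes.

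Together the 44 genes took their largest share of UMIs in Kupffer-like cells. Their summed level there was 34864, 35732, 33595 and 33908 CPM, with a mean of 34525 ± 969 CPM (SD, n = 4), or 3.45% of all UMIs. The sums of every other class lay below the lowest Kupffer-like library. Cycling Kupffer-like cells (28632 ± 966 CPM), other macrophage-like cells (26928 ± 2818 CPM) and classical monocyte-like cells (18301 ± 3498 CPM) followed, and the first and second of these overlapped between libraries.

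Among the remaining classes, pDC-like cells reached 16232 ± 364 CPM, above cDC1-like cells (11124 ± 778 CPM) and cDC2-like cells (9323 ± 838 CPM). LSEC-like cells had 10037 ± 78.7 CPM, the narrowest spread of the 11 classes. B-like (4764 ± 225 CPM), NK or ILC-like (4362 ± 468 CPM) and T-like cells (3750.4 ± 146 CPM) had the lowest sums. In 38 of 44 members every Kupffer-like library was above every B-like, T-like and NK or ILC-like library, and the exceptions were Fuca1, Ppt1, Cd63, Cln3, Atp6v0c and Tfeb. The share of all genes with this order was not counted.

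**Figure D1:**
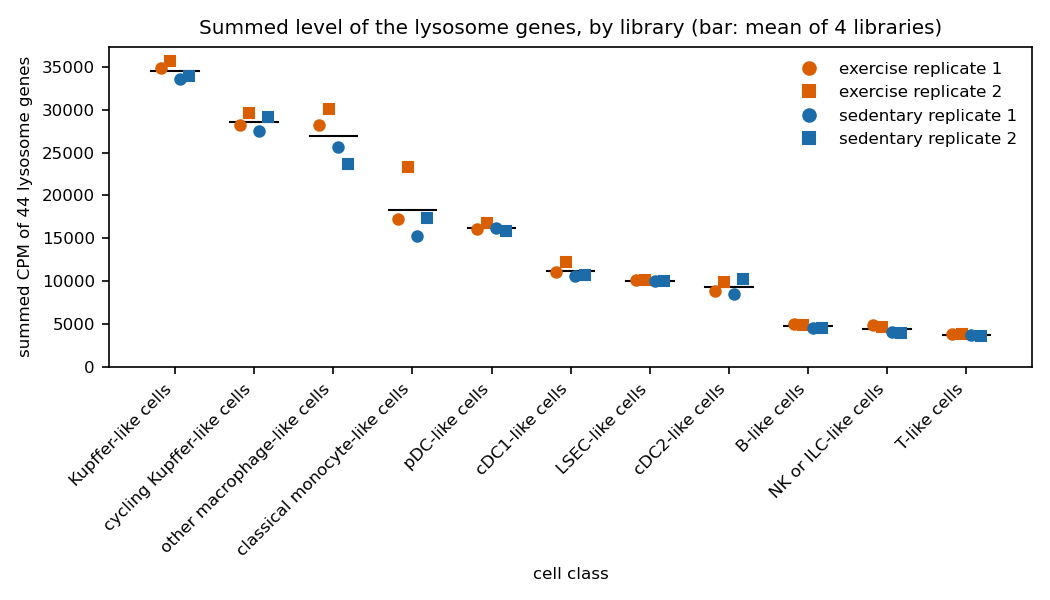
Summed level of the 44 lysosome genes (CPM, y axis) in each class (x axis), 1 point per library and a bar at the mean of 4 libraries. Kupffer-like cells average 34525 CPM and T-like cells 3750.4 CPM, and the exercise 2 point of classical monocyte-like cells (23353 CPM) stands above the other 3.

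The highest class was not the same for all members. It was Kupffer-like for 19 of 44, other macrophage-like for 7, LSEC-like, classical monocyte-like and cycling Kupffer-like for 4 each, cDC1-like for 3, pDC-like for 2 and B-like for 1. The libraries of the highest class lay wholly above those of the next class for 15 members, 7 of them highest in Kupffer-like cells. For the other 29 the first and second class overlapped. Shares over all genes were not counted here either, so these numbers describe the members alone.

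**Figure D2:**
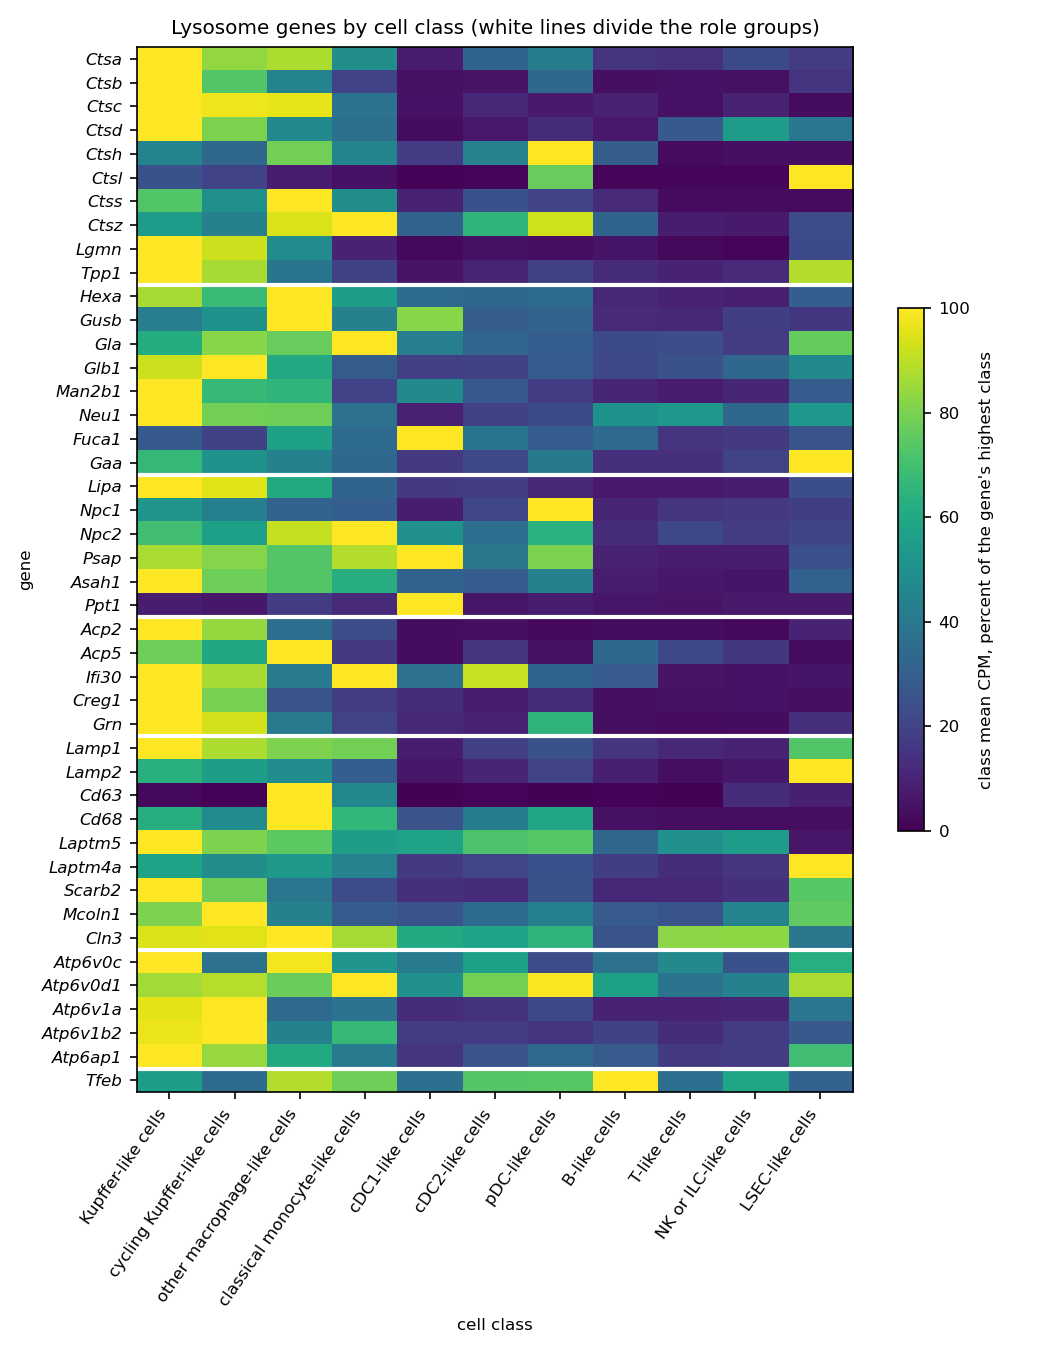
Class mean of each lysosome gene (rows, grouped by role from peptidases at the top to Tfeb at the bottom) as a percent of that gene's highest class mean, over 11 classes (columns). Most rows are brightest in the 3 macrophage columns on the left, while Ppt1 is bright in cDC1-like cells alone (1283 CPM there, 229.6 CPM in the next class).

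Of the 10 peptidases, 6 were highest in Kupffer-like cells. Ctsb, a cysteine cathepsin (ENSMUSG00000021939, chr14:63122462-63145923 of GRCm38), was at 6045, 6446, 5899 and 5729.6 CPM there and 4327, 4557, 4115 and 4651 CPM in cycling Kupffer-like cells, the next class. The ranges did not overlap, and B-like cells were lowest (251 ± 32.2 CPM, SD, n = 4). Ctss, a cathepsin that processes the MHC class II invariant chain, was highest in other macrophage-like cells, at 5205, 4646, 4517 and 4529 CPM, above all Kupffer-like libraries (3133 to 3704 CPM). Lgmn, the asparaginyl endopeptidase legumain (ENSMUSG00000021190, chr12:102394084-102439813), ranged from 2908 ± 121 CPM in Kupffer-like and 2692 ± 261 CPM in cycling Kupffer-like cells to 56.4 ± 23.8 CPM in NK or ILC-like cells.

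Ctsh and Ctsl were highest in other classes. Ctsh, an aminopeptidase, was at 1358, 1353, 1455 and 1336 CPM in pDC-like cells, above other macrophage-like cells (965 to 1166 CPM) and above Kupffer-like cells (594 to 666 CPM). Ctsl, an endopeptidase, was highest in LSEC-like cells (1171, 1199.6, 1180.0 and 1261 CPM), followed without overlap by pDC-like cells (869 to 986 CPM), and Kupffer-like cells had 299 ± 18.6 CPM. In cDC1-like cells Ctsl averaged 9.76 CPM. Ctsz, a carboxypeptidase, averaged 808 CPM in classical monocyte-like cells and 761 CPM in other macrophage-like cells, with overlapping ranges.

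Ctsd, the aspartic cathepsin (ENSMUSG00000007891, chr7:142375911-142388038), was at 1444, 1850.4, 1426 and 1630.2 CPM in Kupffer-like cells, highest in exercise 2, with overlapping groups. Unlike Lgmn it was high in NK or ILC-like cells (951, 985, 800.1 and 771 CPM), whose mean came next after the 2 Kupffer-like classes, and it averaged 443 CPM in T-like cells. Its lowest class was cDC1-like (50.5 ± 17.4 CPM). Ctsc, which activates the serine proteases of granules, overlapped between Kupffer-like (1702 to 1883 CPM) and cycling Kupffer-like cells (1647 to 1822 CPM). Ctsa, a carboxypeptidase that also protects neuraminidase, averaged 527 ± 25.1 CPM in Kupffer-like cells, and Tpp1, a tripeptidyl peptidase, 236 ± 7.995 CPM.

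Only 2 of the 8 glycosidases, Man2b1 and Neu1, were highest in Kupffer-like cells. Man2b1, an α-mannosidase, was at 567, 559.8, 531 and 559 CPM there, above all cycling Kupffer-like libraries (338 to 437 CPM). Hexa, the α subunit of β-hexosaminidase, was at 684, 819, 620.5 and 538 CPM in other macrophage-like cells, which overlapped the Kupffer-like range of 541 to 652 CPM. Gusb, β-glucuronidase, averaged 217 CPM in other macrophage-like and 179 CPM in cDC1-like cells, with overlap, and 92.8 CPM in Kupffer-like cells.

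Fuca1, the α-fucosidase, was highest in cDC1-like cells, at 345, 316, 337 and 402 CPM and above every other macrophage-like library (146 to 239.8 CPM). Its B-like level (119 ± 9.75 CPM) lay above the Kupffer-like level (98.5 ± 2.995 CPM). Gaa, which degrades glycogen, was highest in LSEC-like cells (53.1, 66.3, 83.7 and 92.2 CPM), with overlap with Kupffer-like cells (42.7 to 54.6 CPM). Gla, α-galactosidase A, stayed at or below 9.22 CPM as a class mean, and Glb1, β-galactosidase, averaged 55.7 CPM in cycling Kupffer-like and 51.4 CPM in Kupffer-like cells.

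In the lipid group the clearest class difference belonged to Ppt1, a thioesterase that removes palmitate from proteins (ENSMUSG00000028657, chr4:122836242-122859175). It was at 1322, 1328, 1329.6 and 1153 CPM in cDC1-like cells against 332, 197, 223 and 166 CPM in other macrophage-like cells, the next class, a ratio of means of 5.59. All 4 cDC1-like libraries were far above every other library, and Kupffer-like cells had 102 ± 4.07 CPM. Psap, the precursor of the saposins that help enzymes degrade sphingolipids, was also highest in cDC1-like cells (4192, 4895, 3883 and 4037 CPM), but overlapped classical monocyte-like (2958 to 4587 CPM) cells, and Kupffer-like cells had 3566 to 3841 CPM.

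The cholesterol carriers Npc1 and Npc2 did not share a class. Npc1, the membrane protein of the pair, was at 112, 96.8, 79.6 and 81.4 CPM in pDC-like cells, above the Kupffer-like range of 40.8 to 54.9 CPM. Npc2, its soluble partner, was spread over classical monocyte-like (1406 to 1861 CPM), other macrophage-like (1469.5 to 1665 CPM) and Kupffer-like cells (1096 to 1262 CPM). Asah1, acid ceramidase, was highest in Kupffer-like cells without overlap (449 ± 13.9 CPM), and Lipa, which hydrolyses cholesteryl esters, was alike in Kupffer-like (267 to 329.7 CPM) and cycling Kupffer-like cells (238 to 312 CPM) within the spread.

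Among the other soluble proteins 4 of 5 were highest in Kupffer-like cells. Grn, progranulin, was at 1998, 2035, 1986 and 1997 CPM there, a narrow range that overlapped cycling Kupffer-like cells (1764 to 1995 CPM), and pDC-like cells had 1306 ± 39.1 CPM. Creg1, a secreted glycoprotein of lysosomes, was at 1434, 1332, 1287 and 1228 CPM in Kupffer-like cells, above all cycling Kupffer-like libraries (1018 to 1159 CPM). Ifi30, a thiol reductase that unfolds antigens, overlapped between Kupffer-like (521 ± 40.98 CPM) and classical monocyte-like cells (520.4 ± 145 CPM). Acp2, the lysosomal acid phosphatase, averaged 271 ± 13.7 CPM in Kupffer-like cells. Acp5, the tartrate-resistant phosphatase, was highest in other macrophage-like cells (592, 624, 386 and 399.5 CPM), where both exercise libraries were above both sedentary ones.

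The membrane proteins split between macrophages and endothelium. Lamp1, a major glycoprotein of the lysosomal membrane, was highest in Kupffer-like cells (1151, 1209.8, 1137 and 1150.2 CPM), and its relative Lamp2 in LSEC-like cells (690.3, 621, 761 and 672 CPM against 399 to 458 CPM in Kupffer-like cells). Laptm4a, a small transporter-like protein, was also highest in LSEC-like cells (751, 682, 714 and 728 CPM against 393 to 434 CPM). Its relative Laptm5, known from blood cells, showed the opposite order, with 1175 ± 18.3 CPM in Kupffer-like, 596 ± 33.8 CPM in T-like and 69.1 ± 4.40 CPM in LSEC-like cells. Scarb2, the receptor that carries glucocerebrosidase to lysosomes, averaged 325 ± 20.95 CPM in Kupffer-like and 241 ± 47.3 CPM in LSEC-like cells.

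Cd68, macrosialin, was at 617, 688, 653 and 447 CPM in other macrophage-like cells and 396, 416, 322 and 368 CPM in Kupffer-like cells. The tetraspanin Cd63 (ENSMUSG00000025351, chr10:128900989-128912822) was close to absent from Kupffer-like cells (4.94, 9.41, 3.39 and 6.49 CPM) and high in other macrophage-like cells (337, 306, 370.1 and 142 CPM), and in classical monocyte-like cells it was 249, 185, 30.7 and 75.3 CPM. Processed pseudogenes of Cd63 and of Atp6v0c are annotated in GENCODE but not listed in the count tables, so reads that match both copies could have been lost and both levels are uncertain. Mcoln1, a calcium channel of the lysosomal membrane (ENSMUSG00000004567, chr8:3500457-3515232), averaged 31.5 CPM in cycling Kupffer-like, 25.4 CPM in Kupffer-like and 23.8 CPM in LSEC-like cells, with overlapping ranges. Cln3, whose loss causes a storage disease of neurons, was nearly flat across macrophages (48.5 CPM in Kupffer-like and 51.3 CPM in other macrophage-like cells) and averaged 42.4 CPM in T-like cells.

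Of the proton pump subunits, Atp6ap1, an accessory subunit, was at 294, 301, 303 and 276 CPM in Kupffer-like cells. Atp6v1a and Atp6v1b2, which form the ATP-hydrolysing head, averaged 186 and 228 CPM in Kupffer-like and 194 and 235 CPM in cycling Kupffer-like cells, with overlap for both. Atp6v0d1, a subunit of the membrane sector, varied least, from 46.98 ± 1.86 CPM in T-like to 122 ± 26.1 CPM in classical monocyte-like cells. Its highest mean was in pDC-like cells without exercise 1, without exercise 2 or with doublets kept. In cells with no hepatocyte UMI it was in cycling Kupffer-like cells. Atp6v0c, the proton-carrying ring subunit, reached no more than 5.62 CPM as a class mean. The factor gene Tfeb (ENSMUSG00000023990, chr17:47737030-47792419) was highest in B-like cells (48.8, 46.7, 51.1 and 50.1 CPM), where the sum of its 43 fellow members was low, and was at 29.6, 22.7, 29 and 28.97 CPM in Kupffer-like cells. Other macrophage-like cells overlapped the B-like range (23.7 to 61.2 CPM).

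Free RNA in droplets can give Kupffer-cell UMIs to other cells, so lymphoid levels were set beside 8 genes that define Kupffer cells (Clec4f, C1qa, C1qb, C1qc, Cd5l, Vsig4, Timd4 and Marco). In T-like cells these 8 were at 2.16% to 3.97% of their Kupffer-like level over all libraries. Background was taken as the highest of these 8 in the same library, and 41 members were above it in all 4 libraries. Lgmn (2.04, 2.40, 2.38 and 2.29% of its Kupffer-like level) and Grn (2.79, 3.37, 3.23 and 2.80%) stayed at or below it in all 4, and Acp2, an acid phosphatase, in some. In B-like cells these 8 were at 1.25% to 5.38%. Against the highest of them in the same library, 36 members were above in all 4 libraries and Grn was at or below in all. Ctsb, Ctsl, Gla, Acp2, Creg1, Cd63 and Atp6v0c were above in some. The share of all genes above the background was not counted for either class, so these counts describe the members alone. Levels of Lgmn and Grn in T-like cells were thus not above this background, and whether T-like cells express them was not tested. The 8 genes gauge free RNA from Kupffer-like cells alone. A member above the background may also come as free RNA from another class, which was not tested.

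Members far above the background in lymphoid cells came from several roles. Laptm5 was at 53.04, 52.02, 48.5 and 49.4% of its Kupffer-like level in T-like cells, Neu1, a sialidase, at 49.3, 56.1, 52.1 and 55.1%, and Ctsd at 32.7, 26.7, 27.05 and 25.8%. In B-like cells Ctsd was lower relative to Kupffer-like cells (9.16, 7.23, 5.99 and 5.52%), while Fuca1 (118, 109, 133 and 125%) and Tfeb (165, 206, 176 and 173%) exceeded the Kupffer-like level in all 4 libraries.

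**Figure D3:**
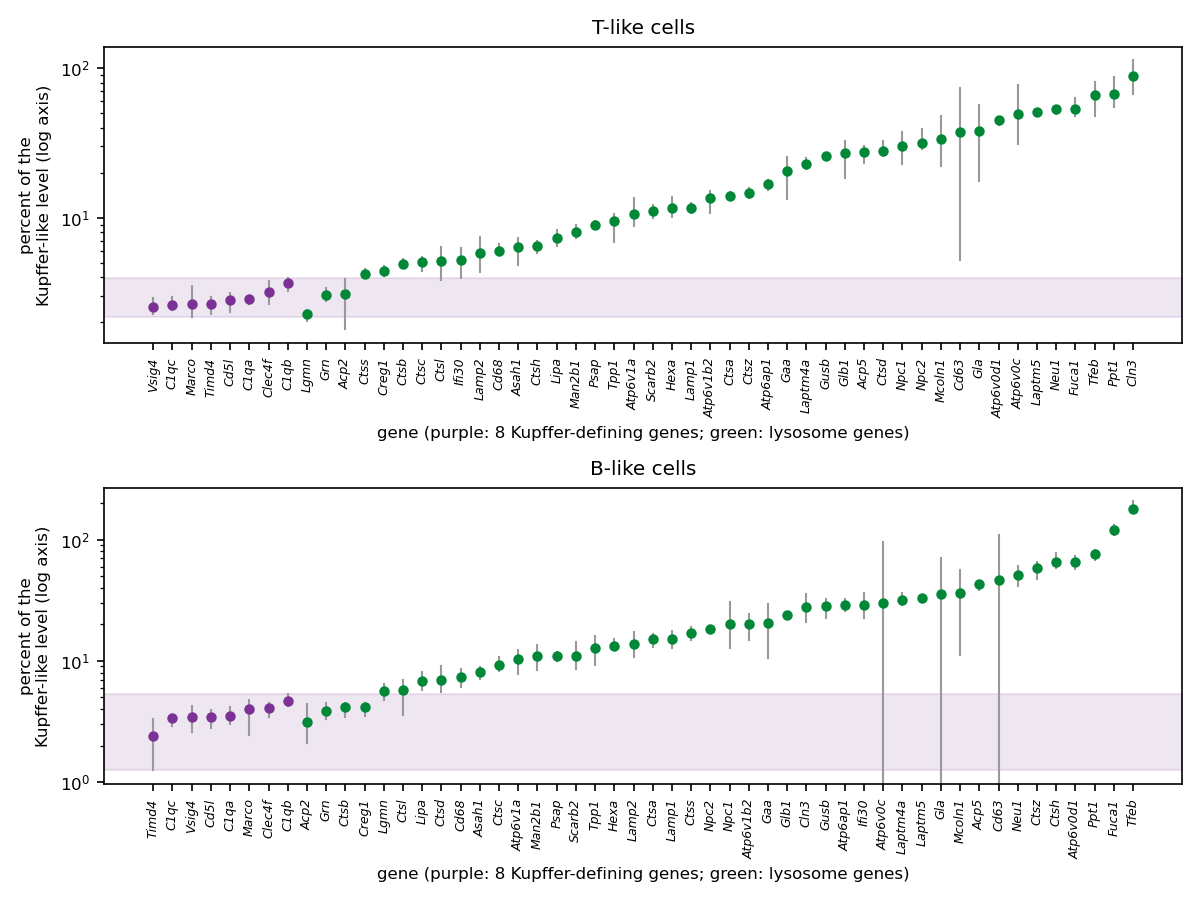
Level in T-like (top) and B-like cells (bottom) as a percent of the Kupffer-like level in the same library, on a log axis, for 8 Kupffer-defining genes (purple) and 44 lysosome genes (green). Points are means and grey lines the range over 4 libraries, a line that leaves the lower edge reaches 0, and the shaded band spans all values of the Kupffer-defining genes (2.16% to 3.97% in T-like cells), with Lgmn at 2.28% and Cln3 at 88.9%.

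Kupffer-like cells consisted of 2 clusters that differed in lysosome transcripts. Cluster 0 (2907 cells, led by Hmox1, Sdc3, Marco, Vcam1 and Abca1) had 38766, 38524, 37363 and 37253 CPM of the 44 genes, and cluster 1 (2433 cells, led by Cd207, C1qb, Clec4f and Folr2) had 32357, 33939, 31663 and 32077 CPM. Every library of cluster 0 was above every library of cluster 1. Psap (5369, 5228, 4864 and 5250.0 against 2642, 2951, 2900.2 and 2933 CPM), Lgmn (3607, 3894, 4072 and 3771 against 2260.1, 2329, 2544 and 2335 CPM) and Ctsb (7127, 7225, 6916 and 6518 against 5350.5, 5945, 5378 and 5298 CPM) had the same order. They are parts of the sum and carried most of its difference. In all, 17 of 44 members were higher in cluster 0 and 9 in cluster 1 without overlap between libraries, and 18 overlapped. The share over all genes was not counted, so these numbers are not read as particular to lysosome genes. The 9 were Ctsh, Ctsz, Man2b1, Fuca1, Npc2, Ppt1, Acp5, Ifi30 and Cd68. The 8 glycosidases summed to 1415, 1521, 1339 and 1424 CPM in cluster 0 and 1591, 1682, 1543 and 1554 CPM in cluster 1, the reverse of the order of the total and without overlap. Ifi30 was at 431, 401, 345 and 398 CPM and 642, 622, 524 and 597 CPM, and Cd68, with the widest ratio of these 9, at 221, 221, 165 and 191 CPM in cluster 0 and 508, 541, 402 and 464 CPM in cluster 1. Cluster 0 also had a higher median mitochondrial share (9.40% against 5.47% of UMIs) and fewer UMIs per cell (median 1957 against 4124), and the part of these in the difference was not tested.

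A further list of 76 lysosomal genes, from other peptidases to the remaining pump subunits, had its highest class in Kupffer-like cells for 19 genes and elsewhere for 57, of which 14 were highest in pDC-like and 12 in cycling Kupffer-like cells. Ctsw and Cst7, a cathepsin and a cystatin of cytotoxic lymphocytes, were highest in NK or ILC-like cells (724, 763, 685 and 624 CPM and 334, 267, 291 and 301 CPM). Cst3, the secreted cathepsin inhibitor cystatin C, was at 22959, 26428, 21572 and 24634 CPM in cDC1-like and 2509, 2665, 2354 and 2412 CPM in Kupffer-like cells. Arsb, a sulfatase, overlapped between NK or ILC-like (74 to 96.2 CPM) and cDC1-like cells (67.4 to 86.6 CPM). Gpnmb, a membrane glycoprotein of phagocytes, was at 0, 357, 3.83 and 2.90 CPM in classical monocyte-like cells, a mean that rests on exercise 2.

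In Kupffer-like cells no lysosome gene passed the test of exercise against sedentary. With edgeR's quasi-likelihood test, 0 of 44 members had an adjusted p below 0.05, against 37 of 9815 genes tested (0.377%), and DESeq2 also called 0 members. At an unadjusted p below 0.05 there was 1 member, Mcoln1, against 5.9% of genes. Changes were small: 41 of 44 members had a log2 change smaller than 0.25 in size. The fitted change was above 0 for 33 of 44 members (median log2 change 0.06), while the median over all 9815 genes was 0.0009 and 50.2% of them were above 0. Both exercise libraries lay on 1 side of both sedentary libraries for 14 members (31.8%), against 36.6% of all genes in either direction.

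Marker transcripts of other cells moved with the groups in this class. The 10 hepatocyte markers summed to 179, 130.0, 1516 and 757 CPM, and for 10 of 10 both sedentary libraries were above both exercise libraries. For the 6 erythroid markers the sum was 102, 309.9, 1093 and 924 CPM, with 5 of 6 in that order, and for the 13 mitochondrial mRNAs it was 66155, 61491, 83945 and 72379.9 CPM, with 10 of 13 in that order. No marker of the 3 lists was at 0 in every library. Cluster 0 held 58.8% and 57.2% of Kupffer-like cells in the exercise libraries and 49.4% and 51.8% in the sedentary libraries. The part of these in the changes below was not tested.

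By role, 7 of 10 peptidases, 6 of 8 glycosidases, 5 of 6 lipid genes, 4 of 5 other soluble proteins, 7 of 9 membrane proteins and 4 of 5 pump subunits had a fitted change above 0, with group medians from 0.02 (pump) to 0.10 (peptidases) on the log2 scale, and 0 members of any group passed the test. Mcoln1, the calcium channel, had the smallest p. Its level was 24.7 and 18.6 CPM in the exercise libraries and 27.1 and 30.97 CPM in the sedentary libraries, and both exercise values were the lower ones (log2 change, exercise minus sedentary, -0.43, SE 0.18, edgeR adjusted p = 0.829). In both clusters its highest exercise value was below its lowest sedentary value, at 33.2, 28.1, 34.6 and 45.9 CPM in cluster 0 and 19.2, 12.6, 23.3 and 22.8 CPM in cluster 1. The clusters divide the same cells and libraries by which Mcoln1 was picked, so they are not separate observations. The share of all genes with this order in both clusters was not counted.

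Cd68 was at 396 and 416 CPM in the exercise libraries and 322 and 368 CPM in the sedentary libraries, and both exercise values were the higher ones (log2 change, exercise minus sedentary, 0.25, SE 0.12, edgeR adjusted p = 0.844). Glb1 was at 55.6 and 54.7 CPM in the exercise libraries and 44.1 and 51.2 CPM in the sedentary libraries (log2 change, exercise minus sedentary, 0.22, SE 0.13, edgeR adjusted p = 0.866), again without overlap. Creg1 showed 1434 and 1332 CPM in the exercise libraries and 1287 and 1228 CPM in the sedentary libraries (log2 change, exercise minus sedentary, 0.16, SE 0.10, edgeR adjusted p = 0.866). None of these differences passed the test against the spread between libraries. Over the alternatives the fitted log2 change ranged from -0.83 to -0.24 for Mcoln1, from 0.13 (without sedentary 1) to 0.85 (cells with no hepatocyte UMI) for Cd68 and from -0.16 (cells with no hepatocyte UMI) to 0.38 for Glb1, and none was called.

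Scarb2 was at 348 and 333 CPM in the exercise libraries and 298 and 320.4 CPM in the sedentary libraries (log2 change 0.16, SE 0.10). Ifi30 was at 559.9 and 535 CPM in the exercise libraries and 464 and 527 CPM in the sedentary libraries (log2 change 0.16, SE 0.11), and Npc2 at 1198 and 1262 CPM in the exercise libraries and 1096 and 1155 CPM in the sedentary libraries (log2 change 0.15, SE 0.10). For each of these 3 both exercise values were the higher ones. Hexa was at 562 and 652 CPM in the exercise libraries and 541 and 556 CPM in the sedentary libraries, and the groups did not overlap in CPM but did on the scaled log2 values (log2 change 0.17, SE 0.12). The edgeR adjusted p-values of these 4 lay between 0.872 and 0.874. Tfeb was at 29.6 and 22.7 CPM in the exercise libraries and 29 and 28.97 CPM in the sedentary libraries, with overlapping groups (log2 change -0.15, SE 0.16).

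**Figure D4:**
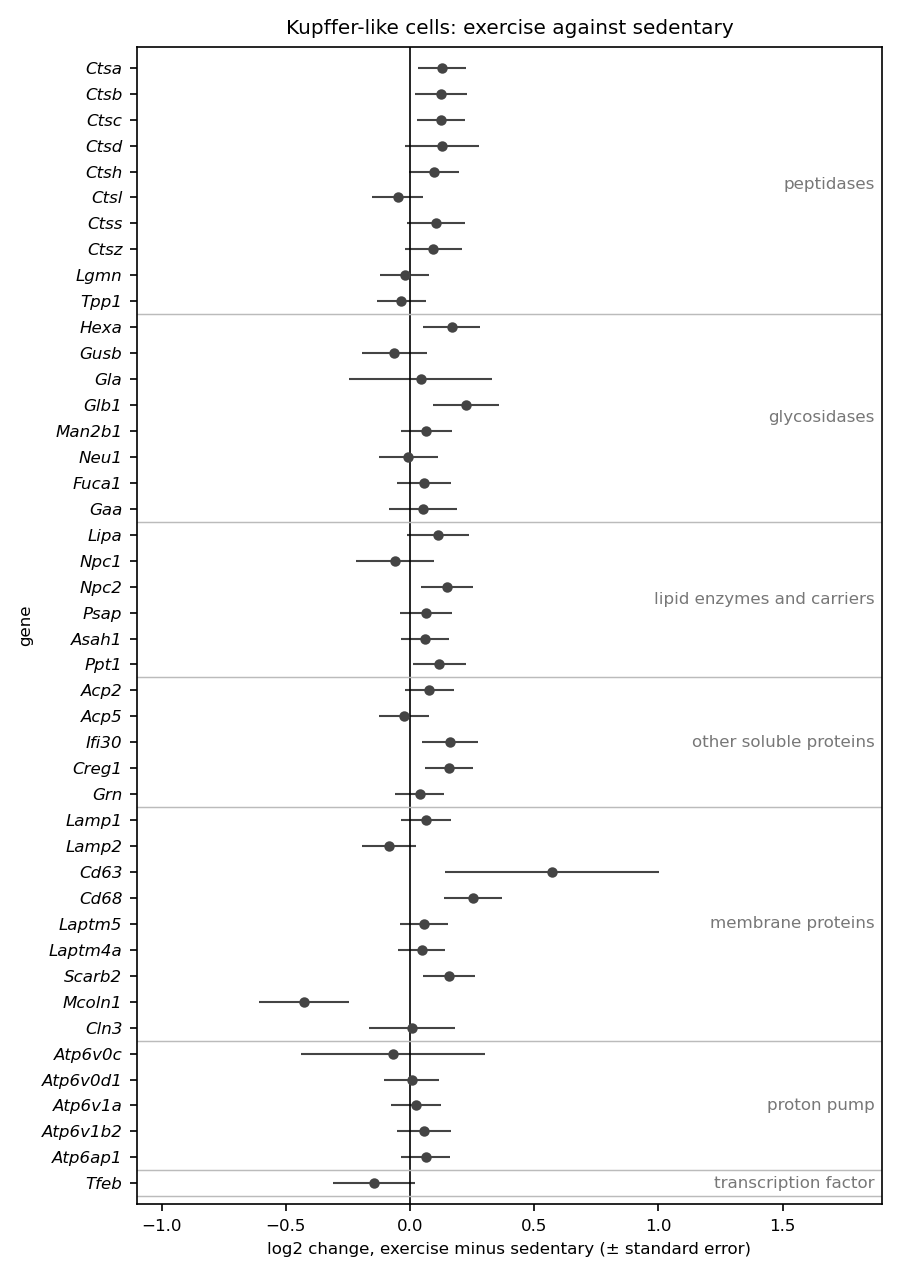
Log2 change, exercise minus sedentary, in Kupffer-like cells (x axis) for the 44 lysosome genes (y axis, grouped by role), as edgeR's fitted change with a bar of 1 standard error on each side. Most points lie within 0.25 of 0, Mcoln1 lies at -0.43, and the wide bar of Cd63 (0.57, SE 0.43) comes with levels of 3.39 to 9.41 CPM.

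In the other 10 classes 0 members passed edgeR's test either, and DESeq2 called 0 in each. Genes called among all tested were 0.0741% in cycling Kupffer-like (39 members tested), 0.496% in other macrophage-like (38), 0% in classical monocyte-like (38), 0% in cDC1-like (34) and 0% in cDC2-like cells (30). They were 0.0767% in pDC-like (38), 0.227% in B-like (38), 0.036% in T-like (41), 0.0298% in NK or ILC-like (28) and 0.054% in LSEC-like cells (36). Over the 11 classes 24 of 404 member tests (5.94%) had an unadjusted p below 0.05, against 5.395% of the tests of all genes, and the smallest adjusted p of a member was 0.356. Members below 0.05 unadjusted numbered 5 in classical monocyte-like cells (background 2.75% of genes), 4 in other macrophage-like (7.08%), 3 each in cDC2-like (6.42%), B-like (5.79%) and NK or ILC-like (5.34%), 2 each in T-like (6.71%) and LSEC-like (4.52%), 1 in cDC1-like (4.63%) and 0 in cycling Kupffer-like (3.8%) and pDC-like cells (5.1%).

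Other macrophage-like cells had the smallest adjusted p, for Ctsb. Its level was 2893 and 3401 CPM in the exercise libraries and 2259 and 2255 CPM in the sedentary libraries, both exercise values above both sedentary ones (log2 change, exercise minus sedentary, 0.48, SE 0.14, edgeR adjusted p = 0.356). Acp5 was at 592 and 624 CPM in the exercise libraries and 386 and 399.5 CPM in the sedentary libraries, with the same order (log2 change, exercise minus sedentary, 0.63, SE 0.20, edgeR adjusted p = 0.502). Ctsd was at 582 and 1285 CPM in the exercise libraries and 697 and 483 CPM in the sedentary libraries, high in exercise 2 alone (log2 change, exercise minus sedentary, 0.69, SE 0.29, edgeR adjusted p = 0.684). Without exercise 2 the Ctsd change was -0.01 on the log2 scale, and without exercise 1 it was 1.12 with an edgeR adjusted p of 0.000194.

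In this class 32 of 38 tested members had a fitted change above 0 (median 0.25 on the log2 scale, against 0.0048 for all genes, of which 50.5% were above 0), and the groups did not overlap for 20 of 38 (52.6%, against 35.7% of all genes). The Kupffer marker Clec4f was at 270.4, 1109.7, 207 and 399.5 CPM and Vsig4 at 204, 838, 92.5 and 305 CPM in the same cells, both highest in exercise 2. The 10 hepatocyte markers summed to 56.1, 81.4, 849 and 328 CPM. The part of these in the changes was not tested.

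Classical monocyte-like cells held 1 library that stood apart. Ctsd was at 324 and 1507 CPM in the exercise libraries and 249 and 275 CPM in the sedentary libraries, and Ctsb at 828 and 2554 CPM in the exercise libraries and 709 and 730.0 CPM in the sedentary libraries. Acp5 (24.9, 220.2, 45.98 and 46.4 CPM) and Lgmn (135, 553, 226 and 214 CPM), chosen after their values were seen, were also highest in exercise 2, as was Gpnmb above. The test across both exercise libraries gave a log2 change of 1.84 for Ctsd (SE 0.60, edgeR adjusted p = 0.999) and 1.26 for Ctsb (SE 0.45, edgeR adjusted p = 0.999). With exercise 1 left out, 5 members were called (Ctsd, Cd63, Ctsb, Acp5 and Lgmn) among 33 of 4546 genes (0.726%), which compares exercise 2 alone with the sedentary pair. With exercise 2 left out, the log2 changes were 0.33 for Ctsd, 0.22 for Ctsb and 2.19 for Cd63 (edgeR adjusted p = 0.991, 0.991 and 0.126), and the summed level of the class averaged 16616 CPM.

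The monocyte marker Ly6c2 was at 1267, 1206, 858 and 1460.0 CPM and the Kupffer markers Clec4f at 129.7, 124, 80.5 and 133 CPM and C1qa at 324, 634, 360.2 and 452 CPM in these cells. Exercise 2 was not the highest library for Clec4f or Ly6c2, and it was for C1qa. The hepatocyte markers summed to 259, 449, 858 and 487 CPM in this class. The part of these in the Ctsd and Ctsb values was not tested. Cd63 differed in another way: it was at 249 and 185 CPM in the exercise libraries and 30.7 and 75.3 CPM in the sedentary libraries, high in both exercise libraries (log2 change, exercise minus sedentary, 1.99, SE 0.42, edgeR adjusted p = 0.999). In cells with no hepatocyte UMI the log2 change was 0.31. The exercise 1 value rests on 35 cells, the fewest of the 4 libraries.

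**Figure D5:**
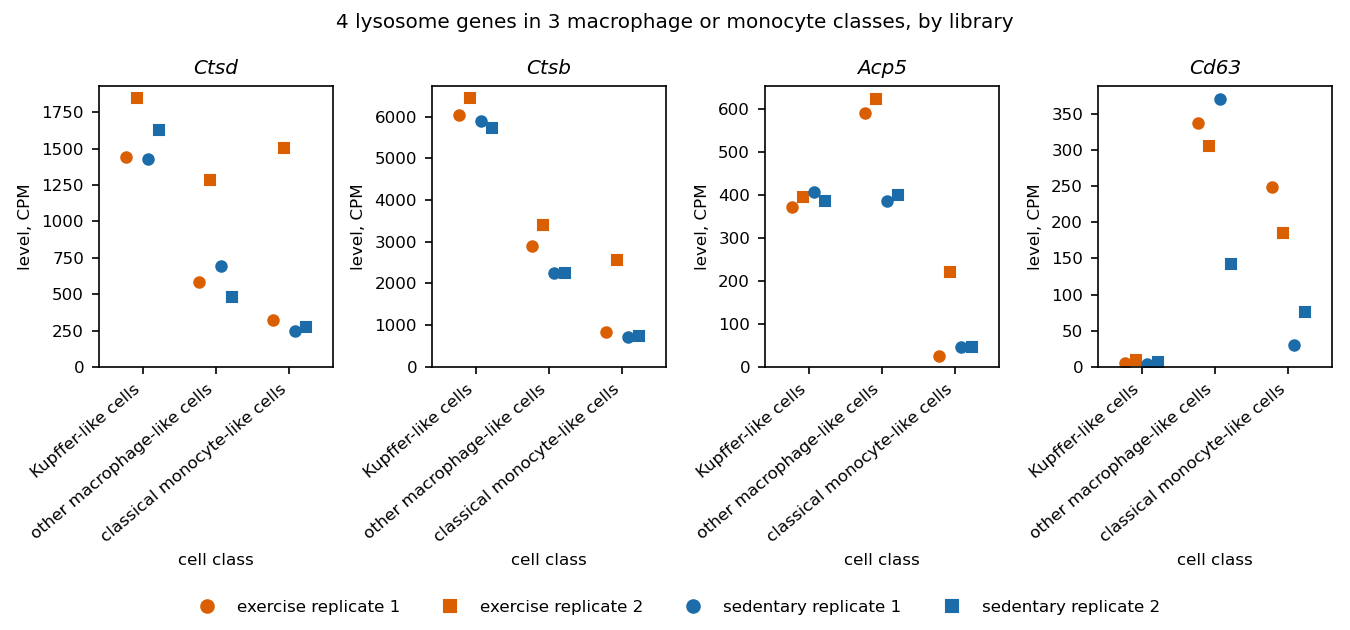
Levels (CPM, y axis, each panel on its own scale) of Ctsd, Ctsb, Acp5 and Cd63 in Kupffer-like, other macrophage-like and classical monocyte-like cells (x axis), 1 point per library. In classical monocyte-like cells exercise 2 stands alone for Ctsd (1507 CPM against 249 to 324 CPM), whereas both exercise libraries are high for Cd63.

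Among lymphoid cells Ctsd had the smallest p in B-like cells, at 132 and 134 CPM in the exercise libraries and 85.4 and 89.9 CPM in the sedentary libraries, with tight pairs that did not overlap (log2 change, exercise minus sedentary, 0.58, SE 0.16, edgeR adjusted p = 0.386). Lamp2 had it in T-like cells, at 28.4 and 32.6 CPM in the exercise libraries and 20.1 and 19.97 CPM in the sedentary libraries (log2 change, exercise minus sedentary, 0.55, SE 0.21, edgeR adjusted p = 0.691). Ppt1 had it in NK or ILC-like cells, at 119 and 118 CPM in the exercise libraries and 74 and 62.4 CPM in the sedentary libraries (log2 change, exercise minus sedentary, 0.80, SE 0.28, edgeR adjusted p = 0.879). All 3 were higher in both exercise libraries, none past the test. The hepatocyte marker sums in these classes were 39, 44.1, 469 and 166 CPM (B-like), 23.3, 22.7, 288 and 73.03 CPM (T-like) and 16.98, 22.5, 268 and 69.8 CPM (NK or ILC-like), and their part was not tested.

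In dendritic cells the members with the smallest p pointed both ways. Atp6v0d1 in cDC1-like cells was at 78.8 and 70.2 CPM in the exercise libraries and 46.8 and 51.01 CPM in the sedentary libraries (log2 change, exercise minus sedentary, 0.52, SE 0.23, edgeR adjusted p = 0.995). Atp6ap1 in cDC2-like cells was at 56.6 and 45.6 CPM in the exercise libraries and 87.1 and 112 CPM in the sedentary libraries, the lower values being those after exercise (log2 change, exercise minus sedentary, -0.97, SE 0.35, edgeR adjusted p = 0.699). Cd68 in pDC-like cells was at 335 and 304 CPM in the exercise libraries and 441 and 343 CPM in the sedentary libraries (log2 change, exercise minus sedentary, -0.31, SE 0.15, edgeR adjusted p = 0.918). A single sedentary cDC1-like library held 20395 CPM of erythroid markers (sedentary 1, against at most 3.09 CPM in the other 3), and its part in the Atp6v0d1 value was not tested. The hepatocyte markers summed to 34.5, 21.1, 204 and 89.6 CPM (cDC1-like), 61.4, 32.2, 251 and 73.4 CPM (cDC2-like) and 19.1, 17.8, 239 and 62.1 CPM (pDC-like), and their part was not tested. Over the alternatives the log2 changes ranged from 0.26 to 0.61 for Atp6v0d1, from -1.18 to -0.75 for Atp6ap1 and from -0.48 to -0.13 for Cd68.

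In LSEC-like cells Atp6v1a was at 84.96 and 104 CPM in the exercise libraries and 62.8 and 51.7 CPM in the sedentary libraries, both exercise values being higher (log2 change, exercise minus sedentary, 0.75, SE 0.26, edgeR adjusted p = 0.978). Ctsd in cycling Kupffer-like cells was at 1192 and 1643 CPM in the exercise libraries and 1001 and 1272 CPM in the sedentary libraries, where the groups overlapped (log2 change, exercise minus sedentary, 0.35, SE 0.18, edgeR adjusted p = 0.994), with a range of 0.07 to 0.57 over the alternatives. The hepatocyte markers summed to 159, 121, 1240.2 and 348 CPM in LSEC-like cells, and their part was not tested.

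The 76 other lysosomal genes gave the same count. In Kupffer-like cells 0 of 68 tested were called by edgeR, with 4 at an unadjusted p below 0.05 (5.88%, against 5.9% of all genes), 35 fitted changes above 0 and a median of 0.01 on the log2 scale. These 4 were Pla2g15, a lysosomal phospholipase (177 and 169 CPM in the exercise libraries and 147 and 139 CPM in the sedentary libraries; log2 change 0.29, SE 0.10), Clcn7, a chloride exchanger (24.9 and 26.8 CPM in the exercise libraries and 32.1 and 37.2 CPM in the sedentary libraries; log2 change -0.40, SE 0.15), Tcirg1, a subunit of the pump's membrane sector (74.6 and 75.98 CPM in the exercise libraries and 87.9 and 107 CPM in the sedentary libraries; log2 change -0.36, SE 0.14), and Mitf, a factor related to TFEB (23.4 and 18.8 CPM in the exercise libraries and 26.8 and 29.97 CPM in the sedentary libraries; log2 change -0.43, SE 0.17). Pla2g15 was higher and the other 3 lower in both exercise libraries, with edgeR adjusted p from 0.688 to 0.805. Scpep1, a carboxypeptidase, came next (55.9, 54.5, 71.6 and 60.7 CPM). Over the 11 classes 0 of 461 tests of this list were called by edgeR and 29 had an unadjusted p below 0.05 (6.29%, against 5.395% of the tests of all genes), and DESeq2 called 1, Cst3 in T-like cells (adjusted p = 0.0497).

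Whether exercise acted differently on Kupffer-like cells was tested as an interaction. Against LSEC-like cells 0 of 44 members were called by edgeR (0.0775% of 10328 genes), with 3 at an unadjusted p below 0.05 (5.03% of genes). The smallest p belonged to Scarb2, with a difference of log2 changes, Kupffer-like minus LSEC-like, of 0.63, SE 0.19, edgeR adjusted p = 0.491. Against T-like cells 0 of 44 were called (0.195% of 10269 genes), with 1 below 0.05 unadjusted (6.79% of genes), Lamp2 (-0.63, SE 0.23, edgeR adjusted p = 0.5). No DESeq2 fit of the interaction was made. Both interactions share the Kupffer-like libraries.

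Of the other lysosomal genes, Cst3 passed the interaction against T-like cells. It was at 2509 and 2665 CPM in the exercise libraries and 2354 and 2412 CPM in the sedentary libraries in Kupffer-like cells and at 284 and 297 CPM in the exercise libraries and 513 and 371 CPM in the sedentary libraries in T-like cells, and in T-like cells both exercise values were below both sedentary ones (difference of log2 changes, Kupffer-like minus T-like, 0.79, SE 0.13, edgeR adjusted p = 0.00106). The call was lost without exercise 2 (0.77, adjusted p = 0.814) and without sedentary 1 (0.50, adjusted p = 0.115). On its own the T-like change was -0.67 (SE 0.15, edgeR adjusted p = 0.249). Cst3 is highest in cDC1-like cells, as given above, and how far free RNA contributes to its T-like level was not tested.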

How the data were processed

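The deposited values are raw UMI counts per gene and barcode, whole numbers that the authors did not normalize. Collagenase digestion, Percoll and centrifugation gave non-parenchymal cells, from which magnetic beads took the CD45+ cells for a 10x 3′ kit, per the labels' protocols. The series text also names FACS sorting and nuclei. It describes a pre-mRNA reference, with which intronic reads can be counted. Per the submitters' processing notes, Cell Ranger and Seurat 3.1 were used on mm10 (GRCm38). The version of Cell Ranger and the use of strand are not given in the sources used here.

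Cells had 500 or more UMIs, 200 or more genes and no more than 20% of UMIs from mitochondrial genes. Doublets, scored against 2 simulated ones per cell, were taken out (0.8% for every 1000 cells). Log values of counts per 10000 were centred within each library and clustered on 2000 variable genes without the members (30 principal components, 20 neighbours, Leiden resolution 1.0, seed 1, leidenalg 0.10.2). Centring was chosen after clusters of Kupffer-like cells split by library without it. Clusters were named from marker lists. UMIs were summed per library and class. The groups were compared in each class with edgeR 4.0.16 (filterByExpr, TMM, quasi-likelihood F test, 2 against 2 libraries, no replicate block) over all genes with Benjamini-Hochberg adjustment at 0.05, and the interaction with the library as a block. DESeq2 1.42.0, other filters and left-out libraries were alternatives. Exact permutation of 2 against 2 libraries (two-sided) cannot go below p = 0.3333 and was not used. Groups are said not to overlap by log2 CPM with a prior count of 2. The procedures were tested on simulated data. Replicates of a group differed by more than sampling noise.

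The members and lists were chosen with earlier results of these data known. Genes were named by rule: in each role the 2 members highest in Kupffer-like cells, each member highest elsewhere, Tfeb, the 8 members with the smallest p in Kupffer-like cells and the member with the smallest p in each other class. Of the other lysosomal genes, the rule took up to 5 by p in Kupffer-like cells and up to 6 by class ratio with at least 50 CPM. A gene that the rule took is not reported here. Further genes were named after their values were seen: Ctsd, Ctsb, Acp5, Lgmn and Gpnmb in the monocyte-like and other macrophage-like classes, Neu1, Ctsc, Ctsa, Tpp1, Acp2, Scarb2, Asah1, Lipa, Ifi30 and Laptm5 across classes, Tfeb and cluster values in Kupffer-like cells, and Cst3.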

Additional observations from a re-analysis of the deposited data

Results flagged for a closer look

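Cst3, the gene of cystatin C, differed in its exercise effect between Kupffer-like and T-like cells, with a difference of log2 changes (Kupffer-like minus T-like) of 0.792 by the edgeR interaction test (adjusted p = 0.00106). Both exercise libraries lay below both sedentary libraries in T-like cells, and both lay above them in Kupffer-like cells. The difference kept its sign but lost its call when exercise 2 or sedentary 1 was left out.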

How the results depend on the processing

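Of 154 counts of members called per class under the alternatives, 148 stayed at 0. With the replicate block, in which libraries of the same number are paired, 4 members were called in other macrophage-like cells (Ctsd, Psap, Ctsb and Acp5) among 69 of 2823 genes (2.44%), and 1 in B-like cells (Ctsd, edgeR adjusted p = 0.0368) among 54 of 6599 genes (0.818%). The labels do not say that the numbers pair animals. In Kupffer-like cells the deviations of exercise 1 and sedentary 1 from their group means correlated at 0.191. Those of exercise 1 and sedentary 2 correlated at -0.191, a mirror image fixed by having 2 libraries per group, so neither value establishes a pairing. With no filter on low counts 3 members were called in classical monocyte-like cells (Ctsd, Cd63 and Ctsb) among 32 of 11693 genes (0.274%). Leaving out 1 library at a time gave 0 to 2 members in other macrophage-like cells and 0 to 5 in classical monocyte-like cells, both maxima without exercise 1 (1.33% and 0.726% of genes called), and 0 to 1 in cDC2-like cells, the 1 being Ifi30 without sedentary 1 (log2 change -0.79, adjusted p = 0.0451, among 0.842% of genes). With 1 library in a group, that library is assumed to vary like the other group. Of 392 values for single named genes, 2 reversed: Glb1 in Kupffer-like cells with no hepatocyte UMI (-0.16 on the log2 scale) and Ctsd in other macrophage-like cells, which ranged over the left-out libraries from -0.0077 (without exercise 2) to 1.12 (without exercise 1). Genes called in Kupffer-like cells ranged from 1 to 215 over the alternatives. The summed level moved by more than 1 SD to 36192 CPM in Kupffer-like cells and 32149 CPM in cycling Kupffer-like cells when restricted to cells with no hepatocyte UMI, to 27665 CPM in the latter with stricter cells, and in LSEC-like cells to 11312 CPM at Leiden resolution 0.5 and 10188 CPM with doublets kept. The highest class was the same for 33 (no hepatocyte UMI) to 44 of 44 members. In cells with no hepatocyte UMI, Ctsc, Lgmn, Man2b1, Neu1 and Grn moved from Kupffer-like to cycling Kupffer-like cells. Ifi30 moved from Kupffer-like to classical monocyte-like cells there, and Glb1 from cycling Kupffer-like to Kupffer-like cells. Ifi30 made the same move with libraries not centred, without exercise 2 and without sedentary 1, and moved to cDC2-like cells without exercise 1. One alternative, libraries not centred, was added after seeing the data. The cause of these shifts was not tested.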
